A study of Mus musculus with 20 samples.

Results

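Whole blood of female C57Bl/6 mice was compared between day 15 and day 10 of growth of a subcutaneous Hepa1-6 hepatoma. The comparison took the 4 arrays titled day 15 and the 4 titled day 10, matched by mouse number (305, 310, 315 and 320), 8 of the 20 arrays of the series. Hepa1-6 is an established mouse hepatoma line of C57 background, and the other 12 arrays held blood of the same mice before inoculation (day 0) and on days 20 and 25. All animals compared carried inoculated cells, so day 15 against day 10 is a step within tumour growth, and no mouse without inoculation was sampled in parallel at these days. On each 2-colour Agilent array the Cy5 channel held the mouse's own RNA and the Cy3 channel a reference RNA from blood of untreated C57Bl/6 mice. Gene values below are therefore log2 ratios of mouse over reference, unless an intensity or a single channel is named. A change is the day 15 value minus the day 10 value.

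Whole blood RNA mixes the transcripts of red cell precursors and reticulocytes, neutrophils, monocytes, eosinophils, lymphocytes and platelets. Classical monocytes leave the bone marrow and can convert in the circulation to non-classical monocytes, which patrol the vessel wall, and eosinophils carry granule ribonucleases of the Ear family. In a bulk sample, fewer cells of a type and less RNA per cell cannot be told apart.

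The 8 arrays differed between the days in more than the sampling day. All 4 arrays of a day shared a slide, so day and slide cannot be told apart. The median net Cy5 intensity (spot mean minus local background) was 18.6 ± 1.9 on day 10 and 14.2 ± 1.58 on day 15 (SD, n = 4 each, scanner units). An exact permutation test gave a two-sided p of 0.0286, the smallest possible for 4 against 4. Flipping the sign within the 4 mice gave 0.125, also the smallest possible there. The reference channel was lower too, with a median net Cy3 of 12 ± 1.67 and then 9.34 ± 1.06. Spike-in control spots had a median net Cy5 of 4490 ± 959 and then 2170 ± 166. Both gave the same p in both tests. The permutation p adjusted over 6 array measures was 0.0429 for each. The share of probes well above background in Cy5 was 42.6% on day 10 and 38.8% on day 15. On day 10 the array of mouse 305 stood apart, with 248 non-uniform spots against 15 to 41 on the other 3 arrays. The labels describe the reference as female, yet Eif2s3y, a Y-linked gene, had net Cy3 intensities of 180 to 405 on all 20 arrays, where Cy5 was -2.32 to 30.1. Xist, transcribed from the inactive X chromosome, ran the other way, with Cy5 at 295 to 4030 and Cy3 at -6.64 to 85.3. Uty, also Y-linked, was near background in both channels, with Cy5 above Cy3 on 10 of 20 arrays, and set no order. By Eif2s3y and Xist the reference did not match its female label, on both days alike.

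Blood was recognisable on all 8 arrays. Hbb-bt (a beta globin), Ptprc (CD45), S100a8 and S100a9 (neutrophil calprotectin), Cd79a and Cd79b (B cell receptor), Cd3e (T cell receptor), Pf4 (platelet factor) and Lyz2 (myeloid lysozyme) were well above background on every array. None of these markers passed the test between the days. Albumin (Alb) was well above background on 2 of 4 arrays of day 10 and on 0 of 4 of day 15, and the keratin Krt14 on all 8. Hbb-b1, Hbb-bs and Alas2 were not among the genes tested.

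Few genes passed the test in the primary analysis, which corrected background with normexp (a model of signal plus noise, offset 50), normalized each array with loess and fitted all 20 arrays with limma. Of 15161 genes, 3 were higher on day 15 at an adjusted p under 0.05, a share of 0.0198%, and 0 were lower. At an unadjusted p under 0.05, 931 genes were higher (6.14%) and 588 lower (3.88%). The same fit called 760 genes higher and 1372 lower from day 0 to day 10, 21 and 4 from day 15 to day 20, and 1786 and 2021 from day 20 to day 25. These counts depend on the scale: on the fixed-offset scale described below the same steps gave 2444 and 2815, 694 and 1300, and 1616 and 1959. Over all genes the median change was -0.0037, and 11 genes moved by 2-fold or more in either direction. Each channel was also fitted alone, after normexp and quantile normalization, which gives all arrays the same distribution of intensities. The reference channel, which held the same RNA on both slides, had 3771 genes called between the days (24.9%), and Cy5 alone 3540 (23.3%). Of these, 1970 were called in both channels with the same direction, which is 55.65% of the Cy5 calls and 52.24% of the Cy3 calls. The changes of the channels correlated across genes with r = 0.859. Genes are not independent replicates, and the slide was shared.

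Ntng1, which encodes netrin G1, a membrane-anchored netrin known for guiding axons, had the largest change of the 3 genes. Its log2 ratios on the normexp scale were -1.19, -0.60, -1.27 and -1.60 on day 10 for mice 305, 310, 315 and 320, and 0.07, -0.02, 0.00 and -0.01 on day 15. All day 10 values lay below the reference and all day 15 values at it, with no overlap. The change of 1.18 (SE 0.176), a 2.26-fold rise, had an adjusted p of 0.0207 in limma. The call held without mouse 310 of day 10 (adjusted p 0.000629) and was lost without any of the other 7 arrays, where adjusted p ran from 0.0603 to 0.118. In net intensities the mouse channel read 61.3, 122, 146 and 136 on day 10 and 389, 278, 255 and 345 on day 15. The reference channel read 475, 508, 503 and 428, then 229, 337, 327 and 276. The mouse signal was thus higher on day 15 in every mouse while the reference signal was lower.

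Dzip3, an RNA-binding ubiquitin ligase, gave the smallest p. Its ratios were -1.21, -0.90, -1.10 and -1.21 on day 10 and -0.03, -0.12, -0.20 and -0.30 on day 15, again without overlap. The change was 0.94 (SE 0.101, 1.92-fold) with a limma adjusted p of 0.000353, and the call held without any 1 of the 8 arrays (highest adjusted p 0.00339). The other 2 probes of Dzip3 changed by 0.08 and 0.05. Its net Cy5 read 393, 511, 563 and 788 on day 10 and 731, 654, 538 and 649 on day 15, higher in mice 305 and 310 and lower in mice 315 and 320. Its net Cy3 read 1120, 1160, 1180 and 1300 and then 589, 819, 875 and 653, lower on all 4 arrays of day 15 than on any of day 10. Prkcz, the atypical protein kinase C zeta that acts in cell polarity, rose from -0.56, -0.15, -0.41 and -0.51 to 0.09, 0.15, 0.04 and 0.10. Its change was 0.50 (SE 0.0827, 1.42-fold) with an adjusted p of 0.0438, which became 0.137 with mouse as a block. This call too held without mouse 310 of day 10 (0.00161) and was lost without any of the other 7 arrays (0.0797 to 0.296). The other 2 probes of Prkcz read -0.04 and 0.01. Its net Cy5 was higher on day 15 in mouse 305 alone (205 and 350) and its net Cy3 averaged 366 and then 213. For both genes the rise rested on 1 probe of 3, and which transcripts each probe detects was not tested.

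**Figure D1:**
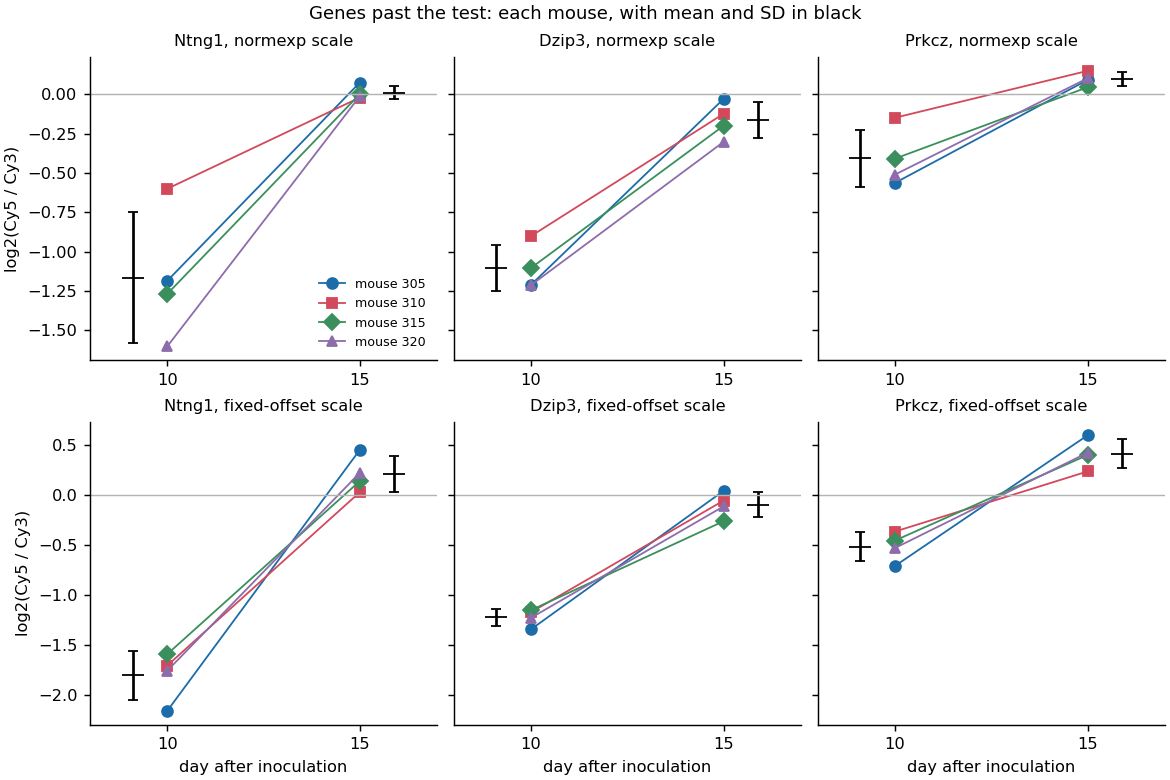
Log2 ratio of mouse over reference (vertical axis) on days 10 and 15 (horizontal axis) for the 3 genes past the test, with a coloured line for each mouse and the mean ± SD of 4 mice in black, on the normexp scale above and the fixed-offset scale below. Ntng1, Dzip3 and Prkcz were higher on day 15 in each of the 4 mice on both scales, and Ntng1 reached 0.07, -0.02, 0.00 and -0.01 on the normexp scale.

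The genes next in order of p did not pass the test. Higher on day 15 were Paox (polyamine oxidase), Phgdh (the first enzyme of serine synthesis), Ralgds, Agtrap and Gkn3, all at an adjusted p of 0.137 in limma, and Stambpl1 at 0.178. Lower were Txnip (a thioredoxin inhibitor, -0.36, adjusted p 0.151), Ddit4 (an inhibitor of mTOR signalling, -0.61), Cd300e (a monocyte receptor, -0.94), Agpat4 (-0.44) and Cirbp (a cold-inducible RNA-binding protein, -0.78), the last 4 at 0.178. Apol10a followed at -1.01 with 0.195. Day 10 and day 15 values of these genes did not overlap.

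After the normexp step the arrays differed in median corrected intensity and in the spread of their log ratios. Whether the first gave rise to the second was not tested. The median corrected Cy5 intensity was 402, 447, 188 and 120 on day 10 and 688, 163, 703 and 486 on day 15, in the order of the mice. The SD of the log ratios over genes was 0.268, 0.209, 0.288 and 0.372 on day 10 and 0.164, 0.231, 0.201 and 0.226 on day 15. On this scale 81.6% of genes had a day 15 mean nearer to 0 than the day 10 mean. A second scale was therefore added after these values were seen: local background subtracted, net signal floored at 0.5, a fixed 50 added on all arrays, then loess. On it the SD was 0.382 to 0.413 on day 10 and 0.322 to 0.441 on day 15, and the share of genes nearer to 0 on day 15 was 52.5%. Each value below names its scale, and fixed-offset results are additions chosen with the data in view.

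**Figure D2:**
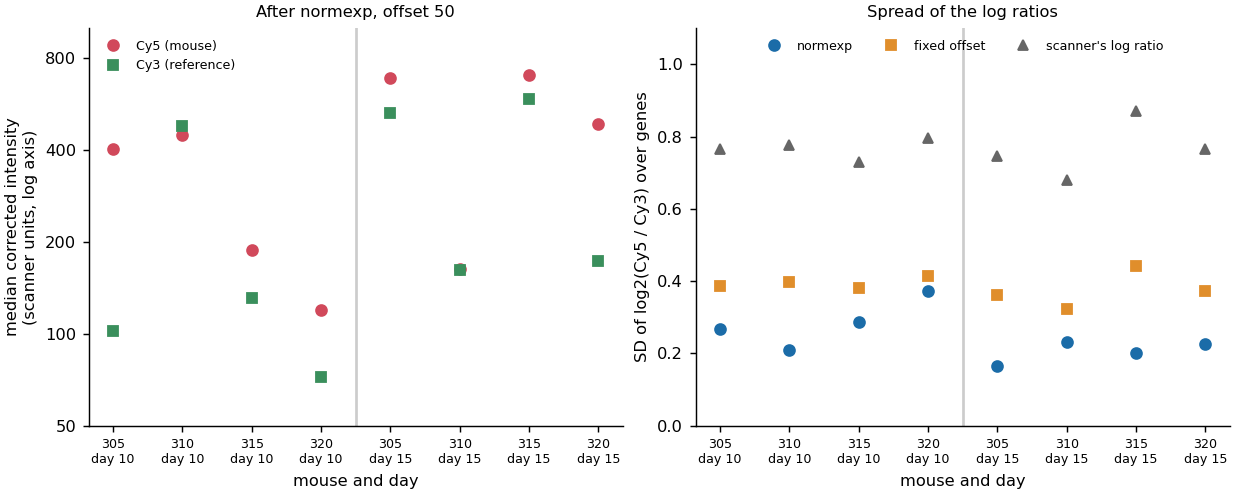
Median intensity of both channels after normexp (left, log axis, scanner units) and SD over genes of the log2 ratio under 3 kinds of processing (right), for each of the 8 arrays. Normexp medians of Cy5 ran from 120 to 703 between arrays, and the SD of normexp ratios was lower than that of fixed-offset ratios on all 8 arrays.

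On the fixed-offset scale limma called 601 genes higher (3.96%) and 198 lower (1.31%) on day 15, 799 in all (5.27%). Of the 799, 789 had the same sign on the normexp scale, where 490 also had an unadjusted p under 0.05 in that direction. The groups did not overlap in 688 of them, against 12.7% of all genes (7.86% higher and 4.85% lower). The sign was the same in every mouse in 766, against 29% of all genes. The test that chose the 799 used the same ratios, so both counts are a description. In the scanner software's own log ratio, which comes from the same scans, 435 were also called with the same sign. In the reference channel 248 of the 799 were also called, 155 of them with the same sign, where 24.9% of all genes were called. Reference channel calls, here and below, are those after normexp and quantile normalization and not on the fixed-offset scale. The counts without 1 array ran from 298 to 624 higher and from 88 to 175 lower. They fell by over 1.5 times in both directions without mouse 305 (298 and 117) or mouse 320 (329 and 88) of day 10, and without mouse 305 (379 and 102), mouse 315 (400 and 117) or mouse 320 (368 and 119) of day 15. With mouse as a block on the 8 arrays alone the counts were 346 and 74, and 374 of the 799 genes were also called. Of the called genes described below, that block lost Fcgr4 (adjusted p 0.0648), Ms4a2 (0.16), Ddit4 (0.0556), Tsc22d4 (0.0959), Ccr6 (0.0592), Hsph1 (0.0564), Hspd1 (0.122), Cst7 (0.101) and Zap70 (0.121).

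Other probes of the called genes mostly did not move as far as the probes used. Of the genes called higher, 131 had other probes, and 54.4% of those 182 probes were above 0, with a median of 0.02 against 0.46 for the probes used. For uncalled genes above 0 the share was 57.6%. For the 51 genes called lower with other probes, 64.2% of 67 probes were below 0, with a median of -0.08 against -0.37, and the share for uncalled genes below 0 was 55.4%. The probe used was the brightest of each gene. A fixed-offset call is thus a statement about that probe, and other probes are given below for the called genes described by their values.

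Several genes known from non-classical monocytes had changes among the most negative of all genes. The group of 15 was put together after the values were seen, so its count is a description with no test and supports no direction. On the fixed-offset scale 7 of the 15 passed the test, all lower, against 1.31% of all genes. Of the 15, 14 were below 0, and the median change was -0.56 against 0.0079 for all genes. The median was -0.39 on the normexp scale, where none passed, and -0.59 in the scanner's ratio. In the reference channel 6 of the 15 were called, against 24.9% of all genes.

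Cd300e, an activating receptor of patrolling monocytes, fell most. Its fixed-offset ratios were 1.14, 1.46, 1.70 and 1.56 on day 10 and 0.35, 0.34, 0.23 and 0.52 on day 15. Every day 10 value was above every day 15 value. The change was -1.11 (SE 0.156, 2.15-fold lower) with a limma adjusted p of 0.000356, and at most 0.00243 without any 1 array. Its mean ratio was 0.97 on day 0, and 0.48 and 0.45 on days 20 and 25.

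Treml4, a receptor that marks non-classical monocytes in mice, read 0.66, 1.04, 1.43 and 1.18 on day 10 and 0.06, 0.25, -0.26 and 0.43 on day 15. It fell by 0.96 (SE 0.201, adjusted p 0.00773) with no overlap, most in mouse 315. Adgre4, an adhesion receptor of the same cells, went from 0.66, 0.80, 1.19 and 0.92 to 0.04, 0.03, -0.08 and 0.16. Its change was -0.85 (SE 0.155, adjusted p 0.0029), and the groups did not overlap. Itgax, the integrin CD11c shared with dendritic cells, went from 0.44, 1.0, 0.94 and 0.56 to -0.16, 0.00, -0.09 and -0.04, a change of -0.81 (adjusted p 0.00258). Its other probe changed by -0.10, so the fall of Itgax rested on the brighter probe.

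Pparg, a lipid-sensing nuclear receptor, read 0.58, 0.86, 0.96 and 0.90 and then 0.23, 0.22, 0.27 and 0.35. It fell by 0.56 (SE 0.0858, adjusted p 0.000719), without overlap. Eno3, an enolase of glycolysis, went from 0.66, 1.07, 1.07 and 1.03 to 0.04, 0.19, -0.03 and 0.26, a change of -0.84 (adjusted p 0.00358). Fcgr4, the Fc receptor of these monocytes, overlapped between the days because mouse 305 read 0.26 and 0.28. Its change of -0.63 had an adjusted p of 0.0347, and the call was lost without any 1 array other than mouse 305 of day 10 (0.0597 to 0.0998).

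The remaining 8 genes of the group did not pass the test. Nr4a1, the transcription factor that non-classical monocytes need, changed by -0.61 with an adjusted p of 0.129. Spn (CD43) read -0.39, Ace -0.17, Ceacam1 -0.15 and the fractalkine receptor Cx3cr1 -0.07, while Cd36 read 0.22. Among 8 genes of classical monocytes, none passed limma's test on either scale, 5 were above 0 on the fixed-offset scale, and the median was 0.06. Ccr2, the receptor that brings these cells out of the marrow, read 0.32 (adjusted p 0.225), Chil3 0.27 and Ly6c1 -0.10. The difference between both groups of monocyte genes was not tested.

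The Ear ribonucleases, granule proteins of mouse eosinophils that are also transcribed in some monocytes and macrophages, fell together on the fixed-offset scale. Of 7 genes tested from this family, chosen after the values were seen, 6 were called lower, against 1.31% of all genes. The 6 were Ear1, Rnase2a, Ear10, Ear6, Ear3 and Ear7, and the related Rnase6 changed by -0.14 without passing. The median change was -0.78, with -0.39 on the normexp scale, where no member passed, and -1.23 in the scanner's ratio. These genes are near-identical copies, so their probes may share signal and the 6 are not 6 separate observations. In the reference channel 1 of the 7 was called, against 24.9% of all genes.

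Ear1 read 1.58, 1.43, 1.36 and 1.45 on day 10 and 0.55, 0.45, -0.15 and 0.71 on day 15. The 4 day 10 values lay close together and above all day 15 values, among which mouse 315 was lowest. The change was -1.06 (SE 0.178, 2.09-fold lower) with an adjusted p of 0.00149. Rnase2a went from 1.36, 1.41, 1.32 and 1.44 to 0.54, 0.29, -0.25 and 0.78, a fall of 1.04 (adjusted p 0.00793). Ear10 went from 0.93, 1.08, 1.28 and 1.04 to -0.10, 0.22, -0.30 and 0.39, a fall of 1.03 (adjusted p 0.000752). Ear6 was well above background on 1 of 4 arrays of day 15, and its change of -0.78 missed the threshold without mouse 305 of day 10 (adjusted p 0.0503). The reference had almost none of Ear6 (net Cy3 averaged 1.07 on day 10 and 9.41 on day 15), so its value rests on the offset. Ear3 missed it without mouse 320 of day 10 (0.0574) or mouse 315 of day 15 (0.0676).

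Eosinophil genes outside the ribonuclease family did not pass the test. Of 5 measured, 0 were called by limma on either scale, yet all 5 were below 0 on the fixed-offset scale, with a median of -0.18 there and of -0.73 in the scanner's ratio. Ccr3, the eotaxin receptor, read -0.35 (adjusted p 0.309), Siglecf -0.08 and Il5ra 0.00. Prg2 and Alox15 did not exceed background clearly on day 15, on 0 of 4 arrays each. From the wider list of eosinophil and basophil genes, Ms4a2 fell by 0.52 with a limma adjusted p of 0.0422. It encodes the beta chain of the IgE receptor of basophils and mast cells. Its call was lost without mouse 305, 310 or 320 of either day (0.0648 to 0.152). Across that list of 10 genes, 2 were called lower (1.31% of all genes) and 0 higher (3.96% of all genes), and the median was -0.15. The 2 were Ms4a2 and Ear1, which is also counted in the ribonuclease family.

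**Figure D3:**
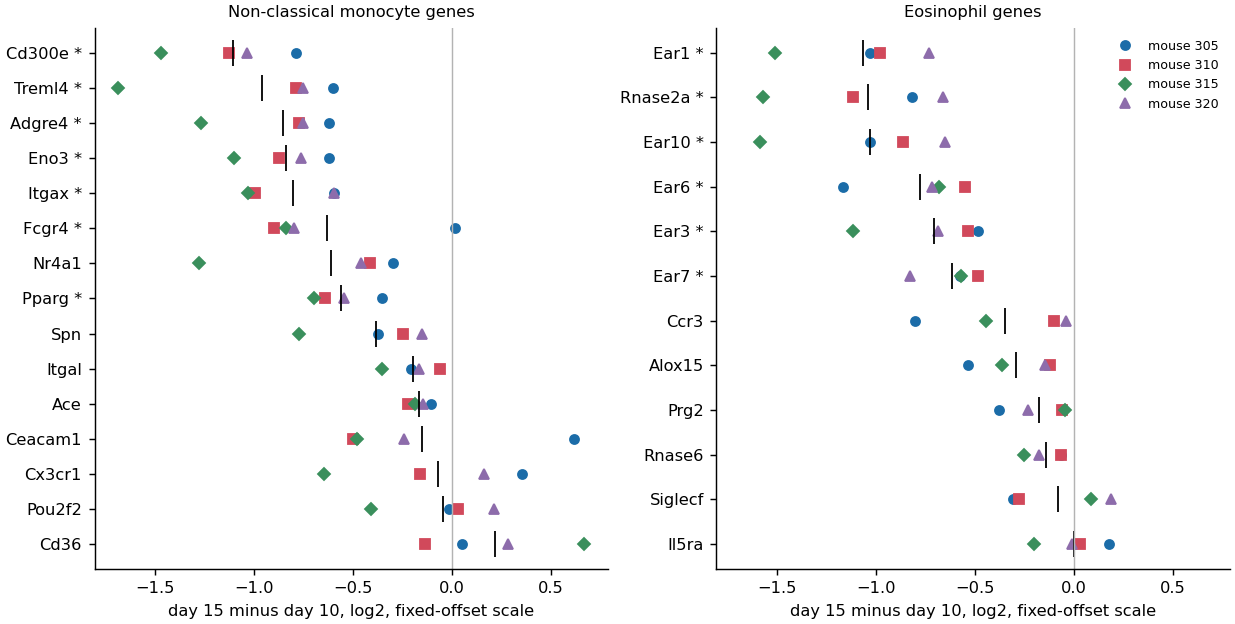
Day 15 minus day 10 in each mouse (coloured points) and mean (black line) for genes known from non-classical monocytes (left) and from eosinophils, ribonucleases included (right), as log2 differences on the fixed-offset scale, with an asterisk for an adjusted p under 0.05. Cd300e, Treml4, Ear1, Rnase2a and Ear10 were below 0 in all 4 mice, whereas Cx3cr1, Cd36, Siglecf and Il5ra had mice on both sides of 0.

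Cirbp, an RNA-binding protein induced by mild cold and driven by body temperature cycles, had its lowest day mean on day 15. The same held for each of the 12 genes named for the lowest changes. Cirbp read 1.31, 0.88, 1.01 and 1.11 on day 10 and -0.01, 0.12, -0.43 and 0.47 on day 15 on the fixed-offset scale. No values overlapped, and the fall of 1.04 (SE 0.158, 2.06-fold lower) had an adjusted p of 0.000654. Its mean was 1.27 on day 0, 1.29 on day 20 and 1.37 on day 25. Rbm3, the related cold-inducible protein, changed by -0.58 with an adjusted p of 0.103, and its other probe by 0.25. Dbp, an output gene of the circadian clock, read 0.45, 0.35, 0.37 and 0.44 and then -0.02, 0.04, -0.02 and 0.11. It fell by 0.38 (adjusted p 0.0189, and 0.052 to 0.0571 without mouse 305 or 320 of day 10 or mouse 305 or 315 of day 15). Among 14 clock and clock output genes put together after the values were seen, 2 passed, Cirbp and Dbp, both lower (1.31% of all genes). The median of the 14 was -0.09. The hour of bleeding is not given in the labels, and its part in these values was not tested.

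Genes known to be induced by glucocorticoids moved unevenly. Of 16 such genes, also chosen after the values were seen, 5 passed the test on the fixed-offset scale, all lower (1.31% of all genes), and the median was -0.31 (-0.18 on the normexp scale, where none passed). Among the 11 that did not pass, 4 were above 0, with Cebpd at 0.39, Klf9 at 0.27 and Per1 at 0.02, while the classical targets Fkbp5 and Sgk1 read -0.08 and -0.10. Tsc22d3, the glucocorticoid-induced leucine zipper, went from -0.43, -0.31, -0.43 and -0.35 to -0.95, -0.84, -0.94 and -1.13. The groups stood apart and the change was -0.58 (SE 0.138, adjusted p 0.017). Its other 2 probes changed by -0.42 and -0.67, so all 3 probes of Tsc22d3 moved the same way. Its reference channel rose by 0.26 after quantile normalization between arrays (limma adjusted p 0.0117).

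Ddit4 went from 0.54, 0.81, 0.60 and 0.73 to 0.14, -0.32, 0.24 and 0.26 on the fixed-offset scale, a change of -0.59 (adjusted p 0.0247). Txnip went from 0.61, 0.23, 0.33 and 0.32 to 0.02, -0.04, -0.11 and -0.10, a change of -0.43 (adjusted p 0.0193), and its other probe changed by -0.23. Neither gene's groups overlapped. Cxcr4, the chemokine receptor that holds leukocytes in the marrow, changed by -0.54 (adjusted p 0.0109), but its other probe by -0.03. The fifth gene was Tsc22d4 at -0.30, whose other 2 probes moved the opposite way (0.24 and 0.30). Single arrays decided several of these calls: adjusted p was 0.0588 for Tsc22d3 without mouse 320 of day 15 and 0.082 for Ddit4 without mouse 310 of day 15. It was 0.0784 for Txnip without mouse 305 of day 10 and 0.0672 for Tsc22d4 without mouse 315 of day 10. Ddit4, Txnip and Tsc22d4 also lost the call without other single arrays.

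Hfe, the haemochromatosis protein that regulates iron uptake, went from 0.95, 1.21, 1.21 and 1.07 to 0.46, 0.18, 0.16 and 0.37 on the fixed-offset scale, a fall of 0.82 (adjusted p 0.00579). The groups did not overlap. Xist was also among the 12 lowest at -0.91, but the reference had almost none of it (net Cy3 of 0.615 on day 10 and 3.6 on day 15), so its value rests on the offset, and the scanner's ratio changed by -0.29. Its other 3 probes changed by -0.17, -0.23 and -0.61.

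The 12 genes with the highest changes on day 15 by the naming rule were Ntng1, Tanc2, Mmrn2, Ptchd4, Flt1, S100b, Fermt1, Skor1, Olfm1, Tbx3, Dzip3 and Zic1, with fixed-offset changes from 2.02 down to 1.08. The day 10 and day 15 values of all 12 did not overlap, though the same values chose them. All 12 were also called in the scanner's log ratio. Without any 1 array 11 of 12 stayed called, the exception being Skor1 (adjusted p 0.0553 without mouse 320 of day 10). In the reference channel 6 of the 12 were called, against 24.9% of all genes.

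Tanc2, a scaffold protein of synapses, read -1.35, -1.27, -1.02 and -1.24 on day 10 and 0.46, 0.17, 0.14 and 0.08 on day 15. Net Cy5 averaged 60.3 on day 10 and 160 on day 15, while net Cy3 averaged 186 and 143. The change of 1.43 (SE 0.167, 2.7-fold) had an adjusted p of 5.87e-05. Mmrn2, an extracellular matrix protein of endothelium, went from -1.06, -0.73, -0.27 and -1.13 to 0.88, 0.19, 0.42 and 0.77, a rise of 1.36 (adjusted p 0.000522).

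Flt1, the VEGF receptor 1 of endothelium and some monocytes, went from -1.19, -0.67, -0.65 and -1.06 to 0.57, 0.17, 0.47 and 0.48 on the fixed-offset scale. Flt1 rose by 1.31 (limma adjusted p 0.00252) and its other probe by 0.77. Its reference channel rose by 0.25 after quantile normalization between arrays (limma adjusted p 9.66e-06). Its net Cy3 averaged 242 on day 10 and 210 on day 15. S100b, a calcium-binding protein best known from glia and also made by some lymphocytes, went from -0.87, -0.47, -0.24 and -0.99 to 0.68, 0.46, 0.72 and 0.82, a rise of 1.31 (adjusted p 0.00226). Each of these genes was below the reference in every mouse on day 10 and above it in every mouse on day 15. Zic1, a transcription factor of the developing nervous system, rose by 1.08 and its other probe changed by 0.91. On day 10 it was dim, well above background on 2 of 4 arrays, with net Cy5 averaging 27. Ntng1 on this scale read -2.16, -1.71, -1.60 and -1.76 and then 0.45, 0.03, 0.14 and 0.22, a 4.04-fold rise (adjusted p 1.18e-05). Whether these probes read their named transcripts in blood was not tested.

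Blood genes among those called higher were chosen for mention after their values were seen. Myb, the progenitor transcription factor, went from -0.27, -0.35, -0.47 and -0.56 to 0.29, 0.15, 0.14 and 0.37 on the fixed-offset scale. It rose by 0.65 (adjusted p 0.000441), while its other 2 probes changed by 0.01 and 0.05. Myb was well above background on 3 of 4 arrays of day 10. Ccr6, a chemokine receptor of B cells and some T cells, went from 0.23, 0.33, 0.16 and 0.34 to 0.64, 0.52, 0.71 and 0.69, a rise of 0.38 (adjusted p 0.0145). Cd180 (0.55) and Siglecg (0.43), both expressed by B cells, were called as well, Cd180 only with all 8 arrays (0.054 to 0.127 without 1) and Siglecg not without mouse 315 of day 15 (0.0626), yet across the B cell list of 18 genes 0 were called in limma and the median was 0.03. In ratio, Paox rose by 0.78 (adjusted p 0.00355; other probe 0.46) and Phgdh by 0.72 (adjusted p 0.0007; other probes 0.42 and 0.03), though net Cy5 averaged 284 and then 237 for Paox and 372 and then 331 for Phgdh, with Cy3 lower by more.

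Genes of heat shock and unfolded proteins had the highest median of 30 lists on the fixed-offset scale. Of 21 tested, 4 were higher (3.96% of all genes), 1 lower (1.31% of all genes) and 16 above 0, with a median of 0.24. On the normexp scale none passed, 17 were above 0, and 6 were higher at an unadjusted p under 0.05 (6.14% of all genes). The median there was 0.13, which became -0.02 after scaling between arrays. Both channels of Dnaja1 had lower net intensities on day 15, Cy3 by more, with Cy5 averaging 447 and then 288 and Cy3 814 and then 432. Dnaja1, a cytosolic co-chaperone of Hsp70, read -1.08, -0.82, -0.92 and -1.03 on day 10 and -0.22, -0.36, -0.20 and -0.84 on day 15. Mouse 320 overlapped, and the rise was 0.56 (adjusted p 0.0143; other probes 0.35 and 0.35).

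Hsph1, a large nucleotide exchange factor of Hsp70, went from -1.30, -1.26, -1.33 and -1.13 to -0.65, -0.51, -0.59 and -1.07, a rise of 0.55 (adjusted p 0.0164). Hspd1, the mitochondrial chaperonin Hsp60, went from -0.59, -0.62, -0.60 and -0.56 to -0.30, -0.28, -0.29 and -0.46, a rise of 0.26 (adjusted p 0.0265; other probe 0.04). Pdia6, a disulfide isomerase of the endoplasmic reticulum, went from -0.50, -0.37, -0.54 and -0.48 to 0.02, -0.08, -0.27 and 0.06, a rise of 0.41 (adjusted p 0.0336; other probes 0.12, 0.27 and 0.13). In mouse 320 the change was near 0 for Hsph1 and small for Dnaja1 and Hspd1. All 4 calls were lost without certain single arrays, by limma adjusted p. Dnaja1 lost it without mouse 305 of day 10 or mouse 305 or 315 of day 15 (0.0503 to 0.0525). Hsph1 lost it without mouse 310 or 315 of day 15 (0.0513 and 0.0512). For Hspd1 the arrays were mouse 305, 310 or 320 of day 10 and mouse 305, 310 or 315 of day 15 (0.0553 to 0.0739). For Pdia6 they were mouse 305, 315 or 320 of day 10 and mouse 305, 310 or 320 of day 15 (0.0616 to 0.0961). Hspa1b, the 1 gene called lower, was well above background on 1 of 4 arrays of each day.

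The promoters of this list show which members carry the classical stress motifs, and 3 are printed because they share a motif. Of the 21 genes, 18 had a promoter in RefSeq (build GRCm38.p6), where 250 bases before the start were searched on both strands. The endoplasmic reticulum stress element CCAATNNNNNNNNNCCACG was in 37 of 32851 promoters (0.113%) and in 3 of the 18 genes, Pdia6, Hsp90b1 and Hspa5. The 150 bases upstream of each start follow, with 1 match in each in capitals.
Pdia6 (chr12:17266439-17266588, plus strand): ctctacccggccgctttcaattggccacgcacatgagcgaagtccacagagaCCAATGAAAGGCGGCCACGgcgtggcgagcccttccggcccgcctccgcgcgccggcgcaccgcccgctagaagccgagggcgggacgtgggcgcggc
Hsp90b1 (chr10:86705445-86705594, minus strand): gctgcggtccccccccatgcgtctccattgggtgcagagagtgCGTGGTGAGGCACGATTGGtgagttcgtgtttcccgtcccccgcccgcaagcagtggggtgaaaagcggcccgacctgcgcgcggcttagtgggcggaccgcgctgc
Hspa5 (chr2:34771940-34772089, plus strand): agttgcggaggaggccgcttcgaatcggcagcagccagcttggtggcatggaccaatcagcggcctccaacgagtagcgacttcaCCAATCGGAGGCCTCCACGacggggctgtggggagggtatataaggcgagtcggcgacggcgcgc

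The match in Pdia6 started 98 bases before the transcription start and that in Hspa5 65 bases before it. In Hsp90b1 the printed match started 107 bases upstream and reads in reverse complement, and a further match lay outside the printed stretch. On the fixed-offset scale Pdia6 rose by 0.41, Hsp90b1, the endoplasmic reticulum Hsp90, read 0.33 without passing (adjusted p 0.118), and Hspa5, the chaperone BiP, read -0.06 (adjusted p 0.889). The heat shock element GAANNTTCNNGAA was in 153 of 32851 promoters (0.466%) and in 2 of the 18 genes, Hspd1 and Hspe1, which share a promoter head to head. Hspd1 rose by 0.26, and Hspe1 read 0.08 (adjusted p 0.642). A match describes letters in the window and not a bound site.

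Few members of the other lists passed the test, and their medians ran from -0.24 to 0.16. On the fixed-offset scale 3016 of all 15161 genes had an unadjusted limma p under 0.05, counting either direction. Neutrophil genes had 2 of 24 there, with 0 called, and a median of 0.16, against -0.03 on the normexp scale. Cytosolic ribosomal protein genes had 0.09 and -0.13, and erythroid genes 0.04 and -0.14, so both changed sign between the scales. Among erythroid genes Sptb, the beta spectrin of the red cell skeleton, fell by 0.51 (adjusted p 0.0444), a call lost without any 1 of the 8 arrays (0.055 to 0.116), and its other probes changed by -0.54, -0.47 and -0.09. Interferon-stimulated genes had a median of -0.08 with 0 of 29 called by limma, and Oas3 was lowest at -0.53 (adjusted p 0.0865). At an unadjusted p under 0.05, 4 of the 29 were higher and 7 lower, against 3016 of all 15161 genes in either direction.

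At the low end, genes of cytotoxic and NK cells had a median of -0.24 on the fixed-offset scale and -0.03 on the normexp scale. Of 17, 1 passed, and it was lower (1.31% of all genes). This was Cst7, a cystatin of cytotoxic granules, at -0.47 (limma adjusted p 0.0333). The call was lost without mouse 305 or 310 of day 10 or mouse 305, 315 or 320 of day 15 (0.0617 to 0.123). Gzmb and Prf1 read -0.53 and -0.10 without passing. The list medians of the mice were -0.45, -0.24, -0.36 and 0.08, with mouse 320 apart. T cell genes had a median of -0.10, and 1 of 21 was called lower (1.31% of all genes). It was Zap70 (limma adjusted p 0.0363). The call was lost without mouse 305, 310 or 315 of day 10 or mouse 305, 315 or 320 of day 15 (0.072 to 0.103). In 8 of 30 lists the median had opposite signs on both scales.

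**Figure D4:**
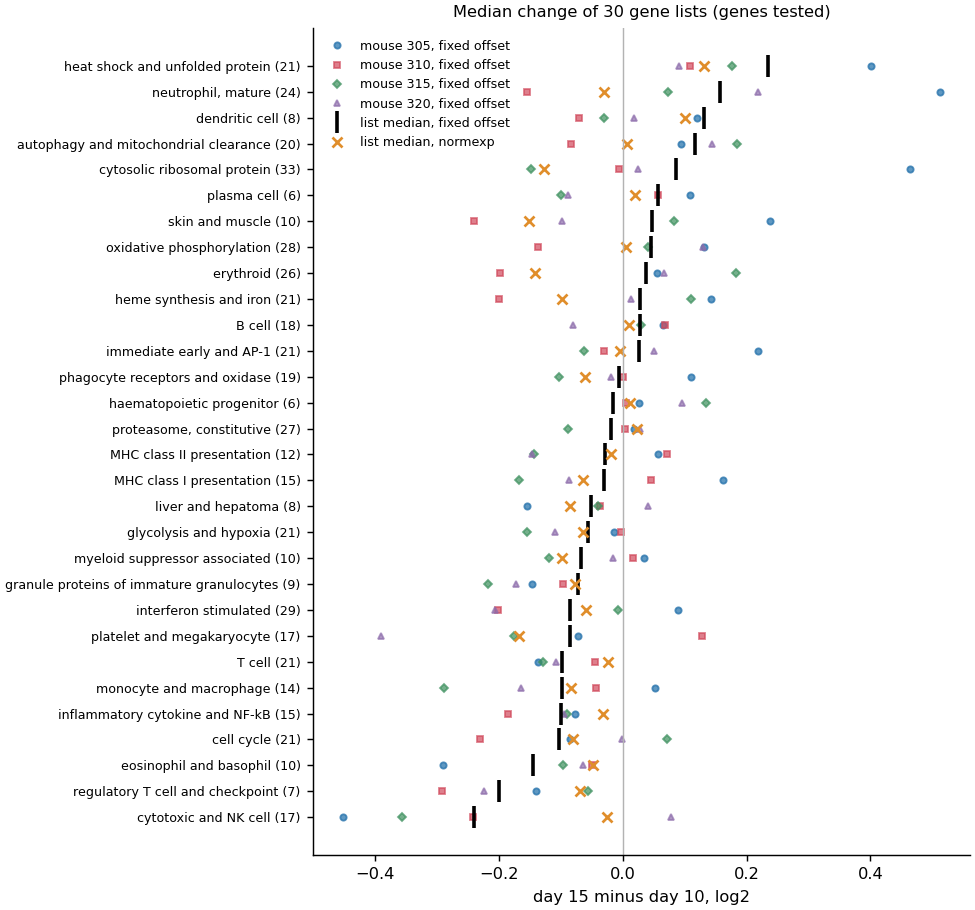
Median change from day 10 to day 15 (log2) of 30 gene lists with the number of genes tested in brackets, as a black bar for the fixed-offset scale, an orange cross for the normexp scale and coloured points for each mouse on the fixed-offset scale. Heat shock genes were highest at 0.24 and cytotoxic genes lowest at -0.24, and in most lists the mice lay on both sides of 0.

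Day 15 was an extreme among the 5 days for most genes called. On the fixed-offset scale 486 of the 601 genes called higher (80.9%) had their highest day mean on day 15, against 24.6% of all genes. Of the 198 called lower, 151 (76.3%) had their lowest mean then, against 23.2% of all genes. Their medians on days 0, 10, 15, 20 and 25 were -0.16, -0.37, 0.13, -0.19 and -0.12 for higher genes and 0.19, 0.32, -0.06, 0.15 and 0.16 for lower genes. The day 15 values chose these genes, so the shares are a description. All 12 of the highest and all 12 of the lowest named genes had their extreme on day 15. Ntng1 averaged -1.05 on day 0, -1.11 on day 20 and -0.75 on day 25, against 0.21 on day 15. Ear1 averaged 1.05, 1.06 and 1.13 on the same days, against 0.39. On the same scale day 20 against day 10, which shares the day 10 arrays, gave 316 genes higher and 478 lower. Since day 15 had its own slide, a state of the blood and a property of that slide cannot be told apart.

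**Figure D5:**
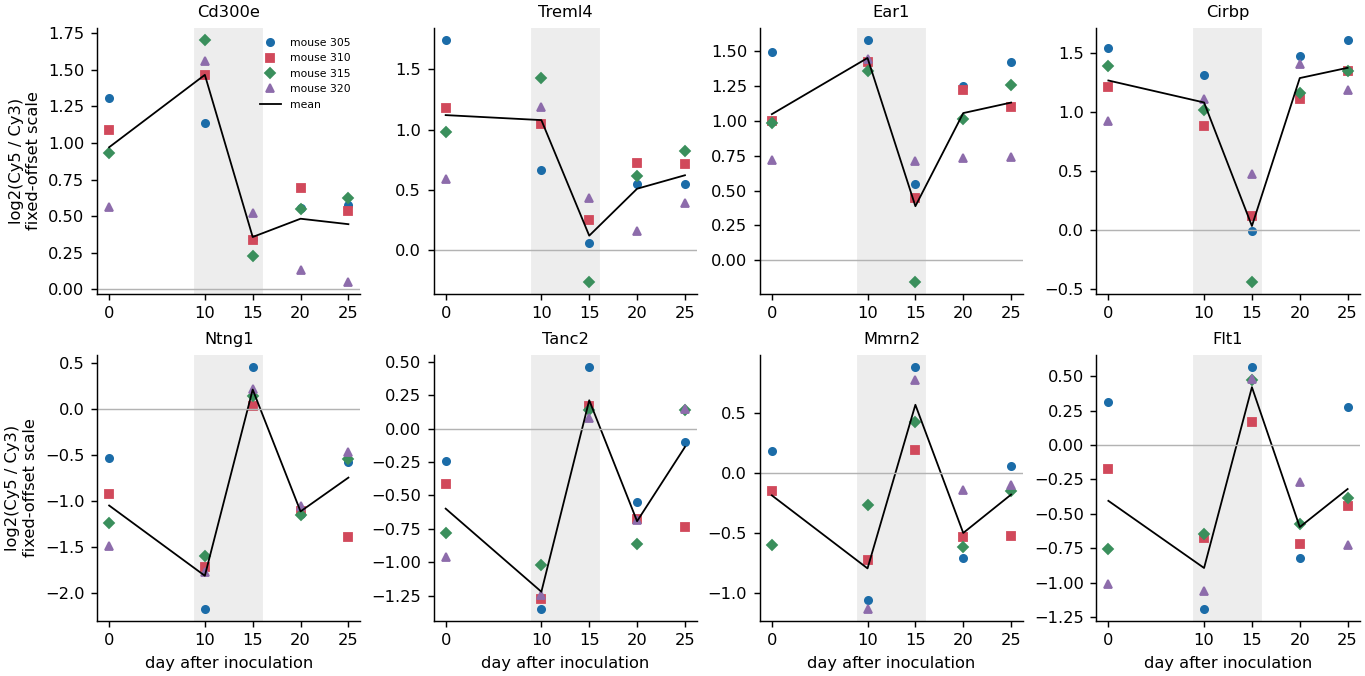
Log2 ratio on the fixed-offset scale (vertical axes) against day after inoculation (horizontal axes) for 4 genes lower and 4 higher on day 15, with a point for each mouse, a line through the day means and days 10 to 15 shaded. Cirbp had means of 1.27, 1.29 and 1.37 on days 0, 20 and 25 around its low on day 15, and Cd300e stayed low at 0.48 and 0.45 on days 20 and 25.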

How the data were processed

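The deposited files are scanner output of Agilent 2-colour arrays (Agilent Feature Extraction 9.1.3.1, per the submitters' processing notes), with a mean signal and a local background intensity per spot and channel and a log10 ratio, per the file headers. The deposited log10 ratio was turned to log2 as an alternative. The day 15 files were read with a grid file in place of a design file, per the file headers.

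Values were computed in R 4.3.3 with limma 3.58.1. After normexp (offset 50) and loess, control and flagged spots were left out, spots of a probe averaged, and probes kept that were well above background in Cy5 on at least 4 of 20 arrays and measured on at least 3 arrays of each day. The brightest probe stood for its gene. This left 20920 of 41174 probes and 15161 genes. RefSeq accessions named 56.8% of probes, symbols 16.4%, synonyms 7.09%, and the file's own name stayed for 19.8%. One fit of 20 arrays with 5 day means gave the change by lmFit and eBayes, with Benjamini-Hochberg adjustment over all genes. Scripts were tested on simulated data.

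The mouse numbers come from the titles and mark the same animals. The deviations of same-numbered arrays correlated by 0.0036, -0.36, -0.0202 and 0.148 for mice 305, 310, 315 and 320 (fixed offset -0.0688, 0.0433, 0.0511 and 0.141). The mean was -0.0571 for the same mouse and 0.0226 for different mice (fixed offset 0.0417 and -0.0139). The comparison, its lists and the genes named were chosen with earlier results of these data known. The naming rule was the 12 highest and 12 lowest called genes with a symbol and the same sign in every mouse; where fewer passed, up to 6 per direction by smallest p; in each list the 2 genes of smallest p per direction; and blood markers. On the fixed-offset scale the same rule gave the 12 highest and 12 lowest. The number of arrays, 4 per day, limits the precision.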

Additional observations from a re-analysis of the deposited data

Results flagged for a closer look

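Of 84 groups of 4 arrays checked, 4 held an array far from the other 3, and chance flags about 1 group in 20. Eno3 on the fixed-offset scale read 0.66 in mouse 305 on day 10, against 1.03 to 1.07 in the other 3. Hspd1 read -0.46 in mouse 320 on day 15, against -0.30 to -0.28. On day 10 the array of mouse 305 had 248 non-uniform spots, against 15 to 41, and its reference channel correlated with those of the other arrays of its day at a mean r of 0.932, against 0.974 to 0.976.

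A signal also appeared outside the comparison. In the reference, labelled female, the Y-linked gene Eif2s3y had a net Cy3 intensity of 180 at its lowest of 20 arrays, where Cy5 was -2.32 to 30.1. The Y-linked Ddx3y read 46.4 to 215 in Cy3 and at most 34.5 in Cy5.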

How the results depend on the processing

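The counts of genes called depended on how background was handled. Against 3 higher and 0 lower, median centring in place of loess gave 0 higher, and it moved the median of all genes to 0.08. Scaling between arrays gave 343 and 33, no background correction 443 and 148, negative control spots as background 376 and 107, the scanner's log ratio 442 and 247, and Cy5 alone 2319 and 1221. The 8 arrays alone gave 1 higher. With mouse as a block, the 8 arrays gave 0 higher and all 20 arrays 2. Leaving out 1 array gave 1 to 101 higher and 0 to 16 lower, where 101 and 16 came without mouse 310 of day 10. The fixed offset, added after seeing the data, gave 601 and 198, with 494 and 126 on 8 arrays, 388 and 146 for probes well above background on all 8. Without 1 array it gave 298 and 117, 502 and 142, 624 and 175, and 329 and 88 for mice 305, 310, 315 and 320 of day 10, and 379 and 102, 529 and 134, 400 and 117, and 368 and 119 for those of day 15. With mouse as a block it gave 694 and 272 on 20 arrays and 346 and 74 on 8. The cause of these shifts was not tested. The changes of Hsph1 and Hspd1 became -0.10 and -0.16 after scaling, and that of Cxcr4 0.0111 after median centring. The other genes whose array values are given one by one kept their direction in the alternatives set out at the start. Calls were compared over pairs of a gene and an alternative, with Hsph1, Hspd1 and Cxcr4 included. Of these pairs, 517 stayed on the same side of the threshold, 112 were newly past it, 27 were no longer past it and 3 changed sign. Genes without a call there could change sign, such as Cst7 (0.12) and Zap70 (0.07) after median centring and Chil3 (-1.185) after scaling. The heat shock list's median became -0.02 after scaling. On day 15, 38.8% of probes were well above background on average, which limits dim genes. Myb, Zic1 and Hoxb2 were instead dim on day 10. On that day Myb was well above background on 3 of 4 arrays, and Zic1 and Hoxb2 on 2 of 4, against 4 of 4 on day 15 for each.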
